A study of Mus musculus with 15 samples.

Results

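The 37 genes described here code for the enzymes and carriers that turn glucose into lactate, for the parts of the oxygen sensor and for well-known targets of the hypoxia-inducible factors (HIF). They were chosen by symbol from a fixed list of names, with no measured value in the rule, but earlier results of these data were known when the list was made. All 37 were found among the 33321 genes of the count table, and all 37 were among the 16795 genes with enough reads to be tested. They fall into 5 roles: 13 genes of hexose entry and upper glycolysis, 6 of lower glycolysis, 5 of lactate and pyruvate fate, 6 of oxygen sensing and the HIF subunits, and 7 other hypoxia response genes.

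Bulk RNA came from the corpus callosum of mice, the large bundle of myelinated axons between the hemispheres, in 15 libraries, with 3 in each of 5 groups. LNIO_Ipsil is the injection site of L-NIO, an inhibitor of endothelial nitric oxide synthase that is injected to make an ischaemic white matter stroke, and LPC_Ipsil is the injection site of lysophosphatidylcholine, a membrane-dissolving lipid that strips myelin. LNIO_Contra and LPC_Contra are the tissue on the opposite side, and Sham_Ipsil is the site of a saline injection in mice with a sham operation. Injured and opposite tissue was taken on day 4, and no day is named for sham tissue. The labels give no strain, sex, age or genotype and do not state that each library is its own mouse. P-values therefore measure only how far these samples spread, and that spread may be technical. Totals ran from 14896445 to 20916606 counts per library, of which the 37 genes took 0.615% to 0.824%.

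As background, glycolysis splits glucose into pyruvate in the cytoplasm and needs no oxygen, and when oxygen is short cells send pyruvate to lactate and export it. The oxygen sensor works on protein: prolyl hydroxylases of the EGLN family mark the HIF alpha subunits, the VHL protein then has them destroyed, and in low oxygen the alpha subunits persist, pair with ARNT and switch on targets that carry a short DNA core in their promoters. In white matter, glia are thought to pass lactate to axons, and microglia and macrophages are known to turn towards glycolysis when they are activated. A hypoxic pattern would here mean higher RNA of the glycolytic enzymes, of the lactate exporter Slc16a3 and of targets such as Pdk1, Egln3, Bnip3, Ankrd37, Adm and Ndufa4l2, and the comparison of LNIO_Ipsil with Sham_Ipsil asks whether the ischaemic model showed one on day 4.

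The libraries expressed the markers of the tract, with the summed level of 8 genes of mature oligodendrocytes between 15421 and 30295 CPM in all 15. CPM stands for counts scaled to the library total, here corrected by the trimmed mean of M-values (TMM). The third LPC_Ipsil library stood apart from the other LPC_Ipsil libraries: its summed level of 10 microglial and macrophage markers was 385 CPM, against 2829.7 and 1838 CPM in the first and second. That level lay inside the range of LPC_Contra, 322 to 474 CPM, and its mature oligodendrocyte sum was the highest of all 15. Its sum of 6 markers of oligodendrocyte precursors, 557 CPM, lay between the 645 and 527 CPM of the first and second, above 416 to 453 CPM in LPC_Contra. It is kept under its label, but the microglial level leaves in doubt how much injured tissue it holds or whether the label is right, and LPC_Ipsil means include it. Calls that change when it is left out are given with and without it.

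In sham tissue the 37 genes covered a wide range of levels per gene length, on the authors' FPKM scale (fragments scaled by gene length and library size). Aldoa, the aldolase of the middle of the pathway, was highest at 282 ± 21.5 FPKM (SD, n = 3). It was followed by Ldhb, the lactate dehydrogenase subunit that favours pyruvate, at 205 ± 13.0 FPKM, and by Pgam1, Eno2 and Aldoc, the enolase of neurons and the aldolase of astrocytes among them, at 143 ± 13.4, 140.2 ± 18.1 and 131 ± 8.51 FPKM. The neighbours Pgam1, Eno2 and Aldoc did not differ by more than their spread. At the low end stood Ndufa4l2 with 0.912 ± 0.385, Hk2 with 0.634 ± 0.115, Slc16a3 with 0.460 ± 0.190, Adm with 0.433 ± 0.199 and Hk3 with 0.368 ± 0.0439 FPKM. Ldha, the subunit that favours lactate, had 39.4 ± 1.19 FPKM, so the sham tract held more Ldhb than Ldha RNA on this scale. Gapdh, Pgk1, Tpi1, Pgam1, Ldha, Aldoa, Eno1 and Pkm have near-identical copies elsewhere in the genome, and their counts are uncertain where reads could be split among copies.

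At the L-NIO site most of the 37 genes stayed close to sham. The quasi-likelihood test of edgeR called 0 of the 37 genes at an adjusted p under 0.05 in LNIO_Ipsil against Sham_Ipsil, where it also called 0% of all 16795 genes. At an unadjusted p under 0.05 it gave 3 of the 37 and 8.87% of all genes, and the Wald test of DESeq2 called 2 of the 37 (Hk2 and Slc16a3) and 1.26% of the genes it tested. With the third LPC_Ipsil library left out, edgeR called 3 of the 37 (Hk2, Hk3 and Slc16a3) and 2.32% of all genes. The median log2 fold change of the 37 was -0.03, beside -0.02 over all genes tested, and 16 of the 37 were above 0. In 32 of the 37 the 95% interval of the fold change lay within 2-fold in either direction, and the other 5 were Hk2, Hk3, Slc16a3, Adm and Ndufa4l2. In bulk tissue fewer cells of a type and less RNA per cell cannot be told apart.

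**Figure D1:**
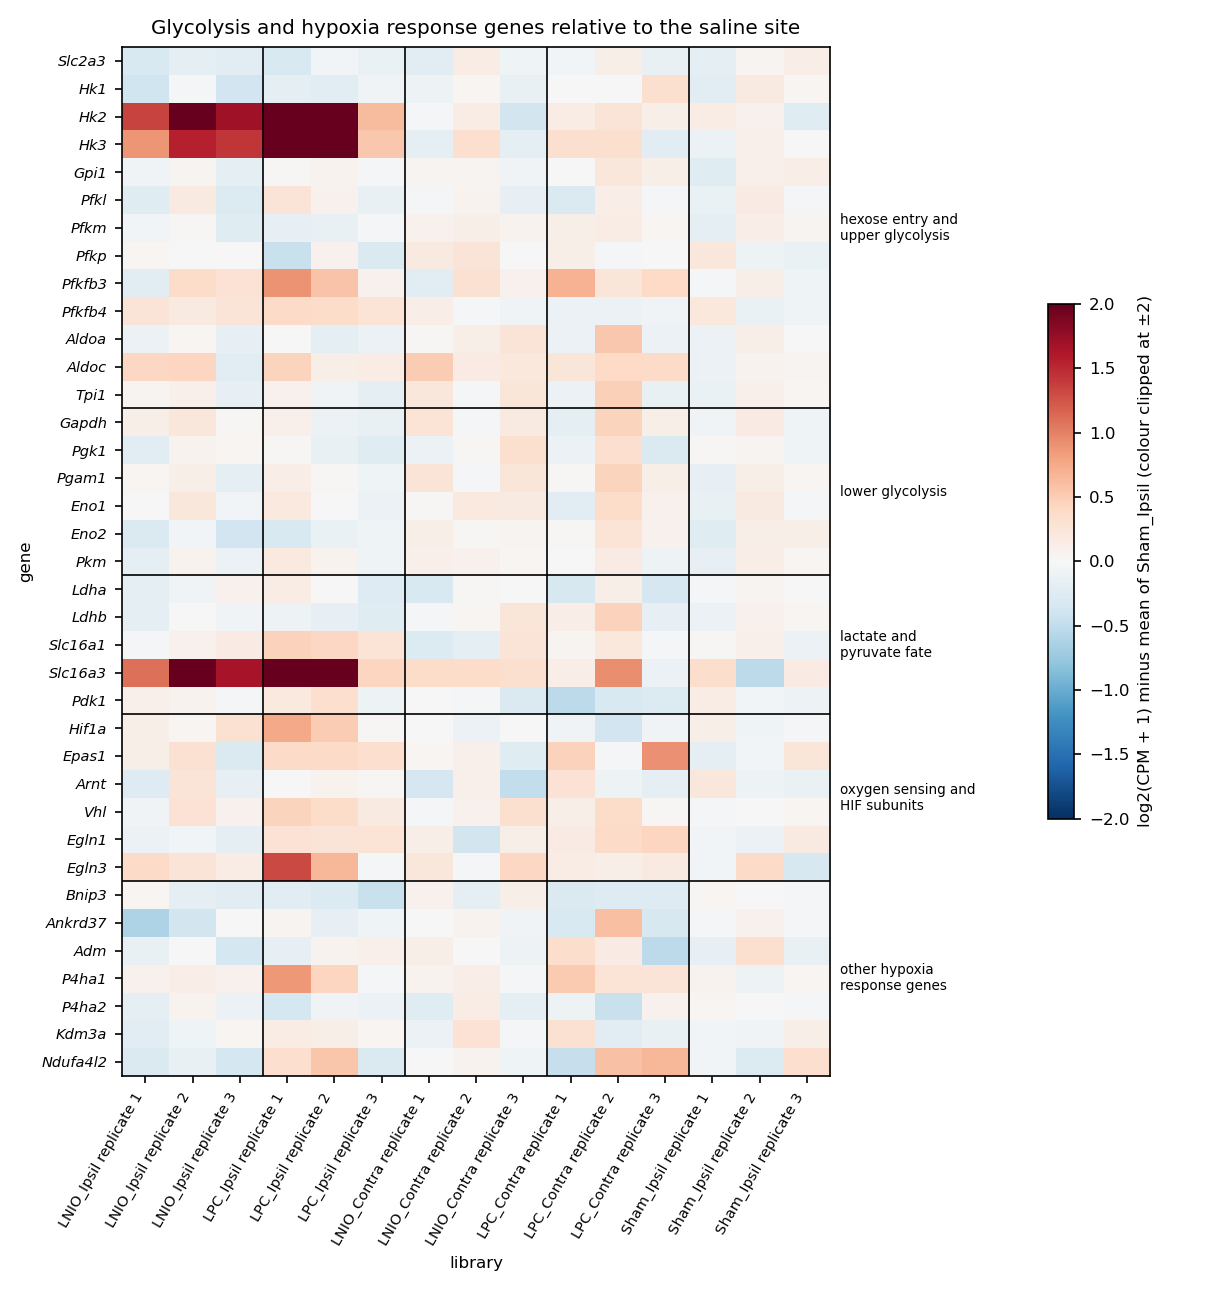
Log2 of CPM + 1 of each of the 37 genes (rows, grouped by role) in each of the 15 libraries (columns, by group), as the difference from the mean of the 3 Sham_Ipsil libraries. Hk2, Hk3 and Slc16a3 are the rows that stand out, in the 3 LNIO_Ipsil libraries and in the first and second LPC_Ipsil libraries. The rows of lower glycolysis are closer to 0, with their highest median, 0.35, in the second LPC_Contra library.

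The 3 genes with an unadjusted p under 0.05 at the L-NIO site were a pair of hexokinases and the lactate exporter. Hk2, the inducible hexokinase that traps glucose at the first step, had 11.7, 19.96 and 15.1 CPM in LNIO_Ipsil, 55.2, 34.6 and 6.77 CPM in LPC_Ipsil, 3.92, 4.54 and 2.86 CPM in LNIO_Contra, 4.54, 4.96 and 4.41 CPM in LPC_Contra and 4.54, 4.33 and 3.22 CPM in Sham_Ipsil. All 3 LNIO_Ipsil libraries and all 3 LPC_Ipsil libraries lay above every sham and opposite-side library, and the third LPC_Ipsil library was the lowest of these 6. The log2 fold change was 1.96 ± 0.52 (SE) in LNIO_Ipsil against Sham_Ipsil, with an adjusted p of 0.263, and 3.0 ± 0.53 in LPC_Ipsil against Sham_Ipsil, with an adjusted p of 0.0243. Both comparisons share the sham libraries. Without the third LPC_Ipsil library, which also enters the shared estimate of spread, the adjusted p values were 0.000696 for LNIO_Ipsil and 2.97e-06 for LPC_Ipsil, with log2 values of 1.97 and 3.48.

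Hk3, a hexokinase known from blood and myeloid cells, was the least abundant of the 37 genes per gene length in sham tissue and followed the same order. It had 3.51, 6.17 and 5.55 CPM in LNIO_Ipsil, 19.6, 8.88 and 2.54 CPM in LPC_Ipsil, 1.15, 2.08 and 1.16 CPM in LNIO_Contra, 2.03, 2.04 and 1.102 CPM in LPC_Contra and 1.26, 1.62 and 1.46 CPM in Sham_Ipsil. No library of either injured side overlapped with sham or with the opposite sides. Its log2 fold change against Sham_Ipsil was 1.81 ± 0.55 in LNIO_Ipsil (adjusted p = 0.293) and 2.83 ± 0.56 in LPC_Ipsil (adjusted p = 0.0243). Without the third LPC_Ipsil library these were 1.82 (adjusted p = 0.0132) and 3.29 (adjusted p = 5.21e-05). Hk1, the hexokinase most abundant in brain, did not move with them: it had 185, 239 and 186 CPM in LNIO_Ipsil, 213, 206 and 232 CPM in LPC_Ipsil and 207, 276 and 250.5 CPM in Sham_Ipsil, with log2 fold changes of -0.27 and -0.17, neither called.

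Slc16a3, the carrier that exports lactate from strongly glycolytic cells, had 6.46, 14.8 and 9.92 CPM in LNIO_Ipsil, 31.4, 13.2 and 3.69 CPM in LPC_Ipsil, 3.51, 3.50 and 3.35 CPM in LNIO_Contra, 2.82, 5.66 and 2.204 CPM in LPC_Contra and 3.47, 1.42 and 2.92 CPM in Sham_Ipsil. Each LNIO_Ipsil library was above every sham and opposite-side library. The third LPC_Ipsil library cleared the highest sham library by little and lay below 1 LPC_Contra library. The log2 fold change against Sham_Ipsil was 1.99 ± 0.62 in LNIO_Ipsil (adjusted p = 0.304) and 2.62 ± 0.62 in LPC_Ipsil (adjusted p = 0.0307). Without the third LPC_Ipsil library they were 2.0 (adjusted p = 0.0243) and 3.08 (adjusted p = 0.000539).

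**Figure D2:**
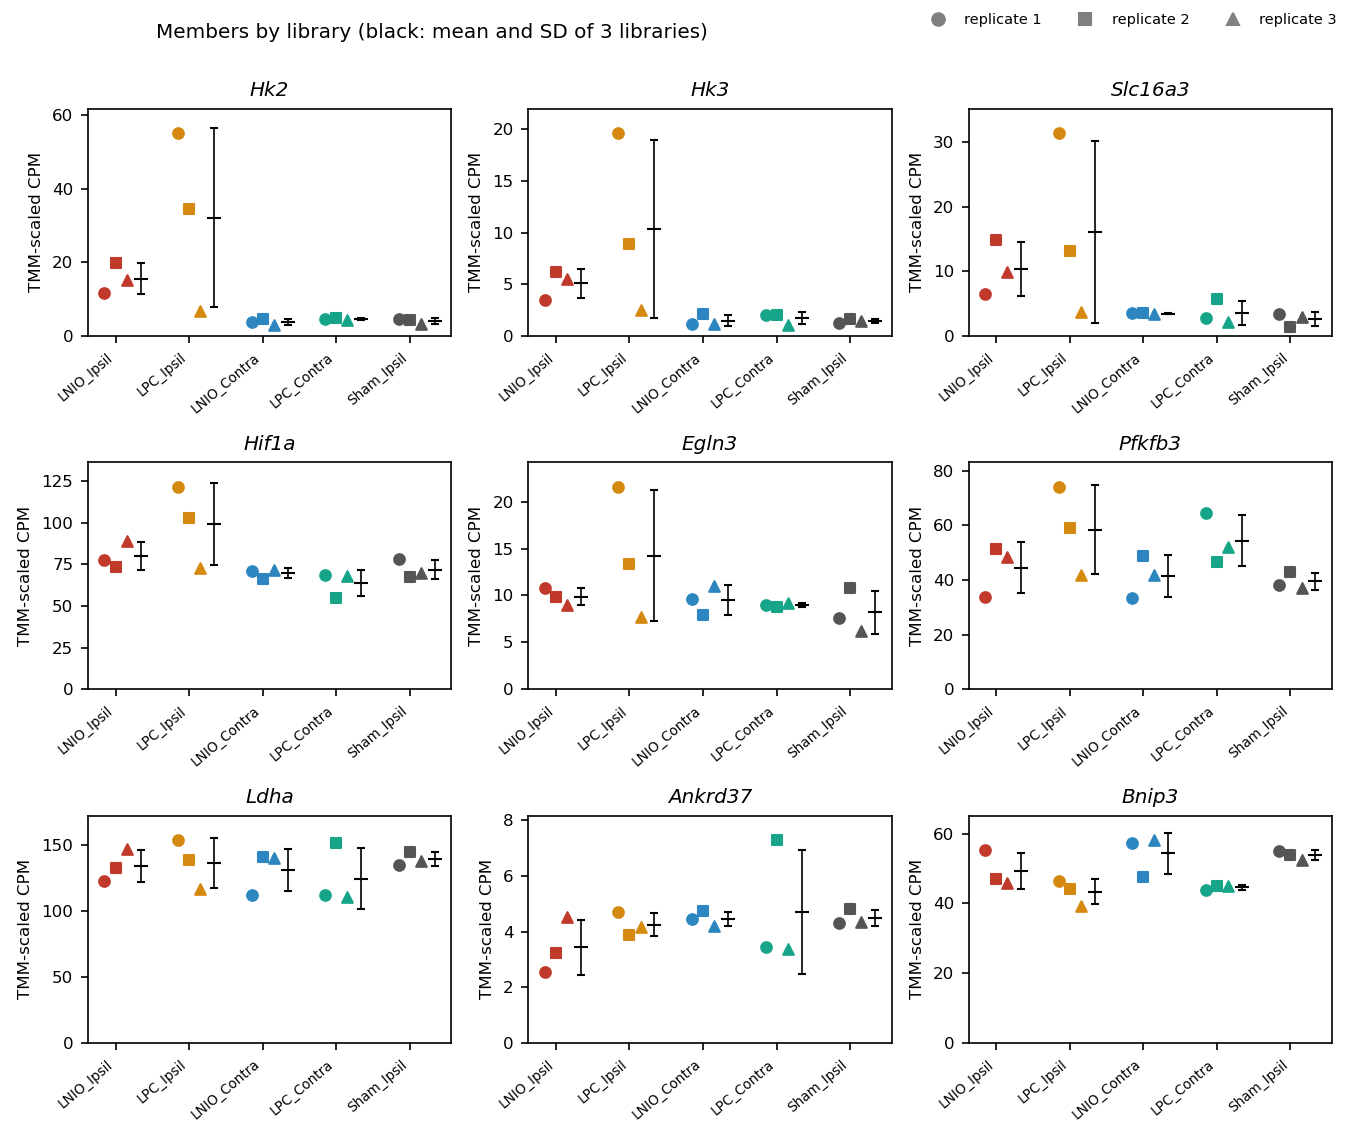
TMM-scaled CPM (vertical axes, from 0) of 9 of the 37 genes in each library of the 5 groups (points), with the mean and SD of the 3 libraries in black. Hk2, Hk3 and Slc16a3 are high in the LNIO_Ipsil libraries and in the first and second LPC_Ipsil libraries, Hif1a and Egln3 are highest in those LPC_Ipsil libraries, and the groups of Ldha overlap.

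Hk2, Hk3 and Slc16a3 were high in the libraries where the microglial and macrophage markers were high. The summed level of the 10 markers (Aif1, Csf1r, Cx3cr1, P2ry12, Tmem119, Itgam, Cd68, Trem2, C1qa and C1qb) was 757, 1215 and 827 CPM in LNIO_Ipsil, 2829.7, 1838 and 385 CPM in LPC_Ipsil, 292 to 349 CPM in LNIO_Contra, 322 to 474 CPM in LPC_Contra and 283 to 332 CPM in Sham_Ipsil. All 10 were called higher in LPC_Ipsil against Sham_Ipsil, with a median log2 fold change of 2.72. In LNIO_Ipsil against Sham_Ipsil 0 of the 10 were called by edgeR, with a median of 1.78. The 5 libraries with the highest marker sums were also the 5 with the most Hk2, the 5 with the most Hk3 and the 5 with the most Slc16a3 RNA. Hk2 stood at 1.54 to 1.95 CPM for each 100 CPM of markers in the 6 injured-side libraries, against 0.931 to 1.51 in the 9 sham and opposite-side libraries. These ranges did not overlap but nearly met, and each of the 9 libraries held only 47 to 96 Hk2 reads. Hk3 stood at 0.463 to 0.693 in the injured-side libraries, against 0.339 to 0.631 in the others, and Slc16a3 at 0.717 to 1.22, against 0.497 to 1.204, so both overlapped. The part of these cells in the result was not tested.

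**Figure D3:**
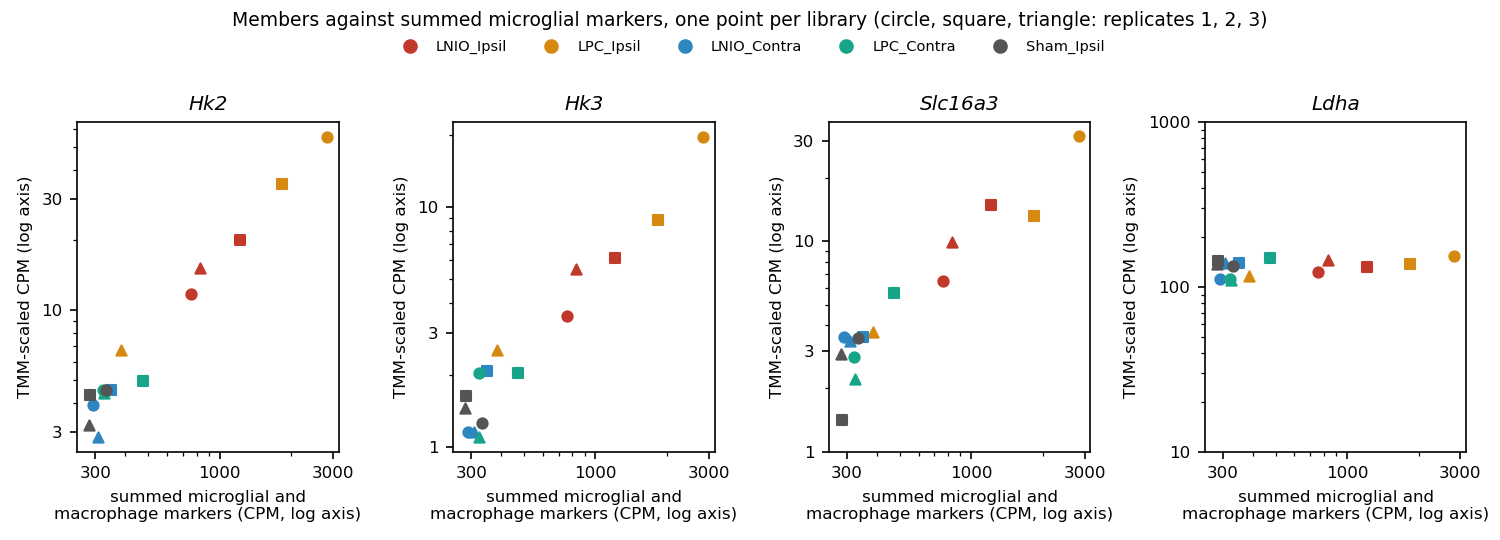
TMM-scaled CPM of Hk2, Hk3, Slc16a3 and Ldha (vertical axes, log scale) against the summed CPM of the 10 microglial and macrophage markers (horizontal axes, log scale) for the 15 libraries, coloured by group, with a circle, square or triangle for replicate 1, 2 or 3. Hk2, Hk3 and Slc16a3 are highest in the 5 libraries with the highest marker sums, and Ldha stays near one level.

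The markers of other cell types were summed in the same way. The summed level of 8 astrocyte markers was 5342 to 6799 CPM in LNIO_Ipsil and 5791 to 7712 CPM in LPC_Ipsil, against 4667 to 5233 CPM in Sham_Ipsil. The 10 neuronal markers summed to 4101 to 4663 CPM in LNIO_Ipsil and 3398 to 4255 CPM in LPC_Ipsil, against 4399 to 5769.8 CPM in Sham_Ipsil, so that neuronal RNA, with which Eno2, Hk1 and Slc2a3 are usually found, was below the sham range in LPC_Ipsil. The 5 neutrophil genes summed to 54.9 to 64.3 CPM in LNIO_Ipsil and 16.2 to 192 CPM in LPC_Ipsil, against 7.44 to 16.6 CPM in Sham_Ipsil. Of the 5, Ly6g was at 0 in all 15 libraries and Mpo was at 0 in 5 of the 6 injured-side libraries. S100a9 was at 0 in the first LNIO_Ipsil and the first LPC_Ipsil library, and S100a8 in the second LPC_Ipsil library. Only 1 of the 5 had enough reads to be tested, so the sum does not stand for the 5 as a set. The 6 markers of oligodendrocyte precursors summed to 310 to 521 CPM in LNIO_Ipsil and 527 to 645 CPM in LPC_Ipsil, against 332 to 405 CPM in Sham_Ipsil, and 3 of the 6 were called higher in LPC_Ipsil. The 7 endothelial markers summed to 161 to 241 CPM in LNIO_Ipsil and 190 to 246 CPM in LPC_Ipsil, against 155 to 170 CPM in Sham_Ipsil, with 0 of 7 called. For 7 markers of pericytes and smooth muscle the sums were 136 to 253 CPM in LNIO_Ipsil and 165 to 227 CPM in LPC_Ipsil, against 139 to 165 CPM in Sham_Ipsil. The sums of fibroblast and red blood cell markers overlapped with sham at both sites. Of the 5 fibroblast markers, Pdgfra is also among the precursor markers. Between the L-NIO sides the 5 had a median log2 value of 0.87, with 4 at an unadjusted p under 0.05 (6.08% of all genes) and 0 called. In LNIO_Contra against Sham_Ipsil their median was -0.81. The part of these other cell types in the results was not tested.

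The promoters of Hk2, Hk3 and Slc16a3, the 3 genes called at the LPC site, are shown because each carries the short core that HIF dimers are known to bind. The core was searched as ACGTG or GCGTG on both strands, and overlapping matches were merged into 1 place. The windows run from 250 bases before to 50 after a gene's start and come from RefSeq on build GRCm38.p6, not from the GRCm39 build of the files. Capitals mark the places, and each is printed 5′ to 3′ on the gene's strand. The window of Hk2 is chr6:82774405-82774704 on the minus strand, that of Hk3 chr13:55021336-55021635 on the minus strand and that of Slc16a3 chr11:120948817-120949116 on the plus strand.
Hk2: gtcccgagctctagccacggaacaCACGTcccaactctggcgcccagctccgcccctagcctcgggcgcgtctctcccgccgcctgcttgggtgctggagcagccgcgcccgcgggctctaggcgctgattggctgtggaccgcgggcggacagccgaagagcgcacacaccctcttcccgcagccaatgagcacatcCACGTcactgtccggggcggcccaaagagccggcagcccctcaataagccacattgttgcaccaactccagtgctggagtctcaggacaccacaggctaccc
Hk3: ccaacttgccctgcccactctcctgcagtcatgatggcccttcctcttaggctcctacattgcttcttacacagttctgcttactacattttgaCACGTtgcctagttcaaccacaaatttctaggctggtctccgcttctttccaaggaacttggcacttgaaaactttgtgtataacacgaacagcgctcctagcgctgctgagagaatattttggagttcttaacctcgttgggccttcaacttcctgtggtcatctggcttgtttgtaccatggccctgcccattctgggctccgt
Slc16a3: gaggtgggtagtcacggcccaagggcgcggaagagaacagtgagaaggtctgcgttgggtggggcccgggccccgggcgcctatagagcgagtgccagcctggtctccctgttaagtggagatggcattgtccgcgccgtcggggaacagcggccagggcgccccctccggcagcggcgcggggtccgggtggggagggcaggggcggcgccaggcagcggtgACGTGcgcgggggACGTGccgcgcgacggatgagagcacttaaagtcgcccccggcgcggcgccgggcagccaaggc
Hk2 holds 2 places, at -226 and -52 from the start, Hk3 holds 1, at -156, and Slc16a3 holds 2, at -27 and -14. A match is a description of the letters and not a bound site. Such a place stood in a window of 46.7% of all genes and of 30 of the 34 members with a window.

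Of the other genes of hexose entry and upper glycolysis, none was called at either injured side. Slc2a3, the main neuronal glucose transporter, had 96.8, 105 and 102 CPM in LNIO_Ipsil, 96.3, 115 and 108 CPM in LPC_Ipsil and 104, 125 and 132 CPM in Sham_Ipsil, with 102 to 133 and 108 to 129.6 CPM in LNIO_Contra and LPC_Contra. The groups overlapped, and the log2 fold change against Sham_Ipsil was -0.24 ± 0.13 in LNIO_Ipsil and -0.17 ± 0.13 in LPC_Ipsil. Pfkfb3, which makes the sugar phosphate that speeds phosphofructokinase and is a known HIF target, had 33.9, 51.2 and 48.4 CPM in LNIO_Ipsil, 74.2, 59.2 and 41.8 CPM in LPC_Ipsil and 38.3, 42.9 and 37.3 CPM in Sham_Ipsil. Its LPC_Ipsil libraries overlapped with sham through the third one and with LPC_Contra, at 46.6 to 64.6 CPM. The log2 fold change was 0.17 ± 0.21 in LNIO_Ipsil (adjusted p = 0.877) and 0.57 ± 0.21 in LPC_Ipsil (adjusted p = 0.142, and 0.0262 without the third library). The 13 genes of this role had a median log2 fold change of -0.01 in LNIO_Ipsil, from -0.27 for Hk1 to 1.96 for Hk2, and of 0.02 in LPC_Ipsil, from -0.21 for Pfkp, a phosphofructokinase, to 3.0 for Hk2.

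The 6 genes of lower glycolysis, the steps that yield energy and pyruvate, showed the narrowest range of all. Their log2 fold changes against Sham_Ipsil ran from -0.25 for Eno2 to 0.12 for Gapdh in LNIO_Ipsil and from -0.18 for Eno2 to 0.06 for Pkm, the pyruvate kinase, in LPC_Ipsil. None was called, the smallest adjusted p was 0.634 in LNIO_Ipsil and 0.500 in LPC_Ipsil, and the widest of these 95% intervals reached 0.34 on either side of the estimate. Pgk1, the kinase of the first energy-yielding step and a textbook HIF target, had 237, 289 and 282 CPM in LNIO_Ipsil, 278, 248 and 233 CPM in LPC_Ipsil and 279, 286 and 259 CPM in Sham_Ipsil, and it is named here as an example chosen after its values were seen. The 3 groups overlapped.

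In lactate and pyruvate fate, Slc16a3 was the only gene called. Ldha had 122.5, 132 and 147 CPM in LNIO_Ipsil, 153, 138 and 116 CPM in LPC_Ipsil and 134, 145 and 138 CPM in Sham_Ipsil, and 112 to 141 and 110.1 to 151 CPM in LNIO_Contra and LPC_Contra. All 5 groups overlapped, and the log2 fold change against Sham_Ipsil was -0.05 ± 0.15 in LNIO_Ipsil (95% interval -0.36 to 0.26) and -0.03 ± 0.15 in LPC_Ipsil (95% interval -0.34 to 0.28). Pdk1, the kinase that keeps pyruvate out of the mitochondrion, had 56.2, 54.9 and 51.2 CPM in LNIO_Ipsil, 59.9, 66.7 and 48.6 CPM in LPC_Ipsil and 58.1, 50.6 and 48.7 CPM in Sham_Ipsil, again with overlap. Its log2 fold change was 0.04 ± 0.13 in LNIO_Ipsil and 0.15 ± 0.13 in LPC_Ipsil, with adjusted p values of 0.958 and 0.563. Ldhb had the lowest log2 fold change of the role at both sites, -0.09 in LNIO_Ipsil and -0.17 in LPC_Ipsil. Slc16a1, the broadly expressed lactate carrier that oligodendrocytes use, had 90.7, 87.6 and 79.1 CPM in LPC_Ipsil, all above 59.9 to 69.9 CPM in Sham_Ipsil, and was not called (log2 0.39 ± 0.13, adjusted p = 0.105).

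Of the oxygen sensor and the HIF subunits, 0 of 6 genes were called at either site, and these RNA levels do not measure HIF protein. Hif1a, the alpha subunit whose protein low oxygen stabilises, had 77.6, 73.4 and 89.2 CPM in LNIO_Ipsil, 122, 103 and 72.9 CPM in LPC_Ipsil, 71.2, 66.3 and 71.6 CPM in LNIO_Contra, 68.4, 54.9 and 68.1 CPM in LPC_Contra and 78.2, 67.3 and 70.0 CPM in Sham_Ipsil. The first and second LPC_Ipsil libraries were above all others and the third lay within the sham range. The log2 fold change against Sham_Ipsil was 0.16 ± 0.16 in LNIO_Ipsil (adjusted p = 0.849) and 0.46 ± 0.16 in LPC_Ipsil (adjusted p = 0.107, and 0.00714 without the third library). Egln3, the hydroxylase that HIF itself induces, had 10.8, 9.84 and 8.98 CPM in LNIO_Ipsil, 21.6, 13.3 and 7.74 CPM in LPC_Ipsil and 7.65, 10.8 and 6.24 CPM in Sham_Ipsil. Again the first and second LPC_Ipsil libraries were the high ones. Its log2 fold change was 0.27 ± 0.29 in LNIO_Ipsil (adjusted p = 0.861) and 0.80 ± 0.29 in LPC_Ipsil (adjusted p = 0.134, and 0.00884 without the third library). The lowest log2 fold change of the role was that of Egln1, the main hydroxylase, in LNIO_Ipsil (-0.13) and that of Arnt, the shared partner subunit, in LPC_Ipsil (0.02). The median of the 6 was 0.08 in LNIO_Ipsil and 0.35 in LPC_Ipsil, and in LPC_Ipsil all 6 values were above 0, beside 51.4% of all genes. In LPC_Contra against Sham_Ipsil 5 of the 6 were also above 0, with a median of 0.16. Between the LPC sides 4 of the 6 were above 0, with a median of 0.09.

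Of the 7 other hypoxia response genes, 0 were called at either site. Bnip3, a mitochondrial protein of mitophagy and a direct HIF target, had 55.4, 46.9 and 45.9 CPM in LNIO_Ipsil, 46.4, 44.3 and 39.4 CPM in LPC_Ipsil and 55.1, 54.0 and 52.5 CPM in Sham_Ipsil. All LPC_Ipsil libraries were below all sham libraries, and 1 LNIO_Ipsil library lay just above the sham range. The LPC_Contra libraries, at 43.8, 45.1 and 44.9 CPM, were below all sham libraries too. The log2 fold change was -0.13 ± 0.11 in LNIO_Ipsil and -0.31 ± 0.11 in LPC_Ipsil, with adjusted p values of 0.816 and 0.118. Ankrd37, a small ankyrin-repeat protein used as a HIF marker, had 2.56, 3.23 and 4.51 CPM in LNIO_Ipsil, 4.71, 3.87 and 4.17 CPM in LPC_Ipsil and 4.30, 4.80 and 4.33 CPM in Sham_Ipsil, with overlap and log2 fold changes of -0.38 ± 0.29 and -0.07 ± 0.29. P4ha1, a collagen prolyl hydroxylase, had the highest log2 fold change of the role at both sites, 0.10 in LNIO_Ipsil and 0.47 in LPC_Ipsil (adjusted p = 0.119, and 0.00517 with a log2 value of 0.67 without the third library). It was also above all sham libraries in LPC_Contra, at 85.4, 71.9 and 71.6 CPM. Between the LPC sides its log2 value was 0.11.

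Adm and Ndufa4l2 were near the limit of what this depth could resolve. Adm, the vasodilator peptide adrenomedullin, had 0.557, 0.723 and 0.347 CPM in LNIO_Ipsil, 0.543, 0.803 and 0.847 CPM in LPC_Ipsil and 0.538, 1.15 and 0.553 CPM in Sham_Ipsil. Ndufa4l2, a mitochondrial protein that HIF induces, had 0.668, 0.834 and 0.595 CPM in LNIO_Ipsil, 1.57, 1.98 and 0.665 CPM in LPC_Ipsil and 0.957, 0.676 and 1.56 CPM in Sham_Ipsil. Neither was high in any LNIO_Ipsil library. The log2 fold change in LNIO_Ipsil against Sham_Ipsil was -0.45 for Adm, with a 95% interval of -1.59 to 0.70, and -0.62 for Ndufa4l2, with an interval of -1.77 to 0.53. In LPC_Ipsil the estimates were -0.01 (-1.15 to 1.13) and 0.39 (-0.70 to 1.49), so changes of these 2 genes of about 2-fold were not detectable at this depth.

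The promoters of Ankrd37 and Bnip3 are shown in the same form, because they hold more places of the HIF core than Hk2, Hk3 or Slc16a3 while neither gene was called higher. The window of Ankrd37 is chr8:45999801-46000100 and that of Bnip3 chr7:138909457-138909756, both on the minus strand of GRCm38.p6, and capitals again mark the places.
Ankrd37: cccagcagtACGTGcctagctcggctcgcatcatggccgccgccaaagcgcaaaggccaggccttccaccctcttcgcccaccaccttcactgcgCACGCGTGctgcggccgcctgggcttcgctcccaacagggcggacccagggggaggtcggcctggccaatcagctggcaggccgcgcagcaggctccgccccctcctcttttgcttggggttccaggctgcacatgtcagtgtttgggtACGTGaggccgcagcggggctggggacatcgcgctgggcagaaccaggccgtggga
Bnip3: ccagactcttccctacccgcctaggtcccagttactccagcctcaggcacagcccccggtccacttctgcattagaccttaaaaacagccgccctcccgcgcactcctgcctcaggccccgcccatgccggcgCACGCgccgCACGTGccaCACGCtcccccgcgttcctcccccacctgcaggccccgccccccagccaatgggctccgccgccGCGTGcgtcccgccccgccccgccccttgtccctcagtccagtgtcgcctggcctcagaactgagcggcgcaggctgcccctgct
Ankrd37 holds 3 places, at -241, -155 and -6 from the start, and Bnip3 holds 4, at -117, -108, -99 and -35. Over all 34 of the 37 genes with a RefSeq window, 30 (88.2%) held a place in at least 1 window, against 46.7% of all 27025 genes of that table. Counted by window, 38 of 49 (77.6%) held a place, against 43.8% of all 32851 windows. Ndufa4l2, Slc2a3 and Epas1 had no window. The core therefore stood in the promoters of most of these genes, whether they were called or not.

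At the LPC site, 3 of the 37 genes were called higher than in Sham_Ipsil (Hk2, Hk3 and Slc16a3) and 0 lower. This is to be read beside 4.19% of all genes called higher, 0.994% called lower and 5.19% called in either direction. At an unadjusted p under 0.05 the count was 11 of the 37, beside 20.2% of all genes. The median log2 fold change of the 37 was 0.02, beside 0.01 over all genes, and without the third LPC_Ipsil library it was 0.096, beside 0.0055. In 9 of the 37 all LPC_Ipsil libraries were above all sham libraries, beside 14% of all genes, and in 2 (Bnip3 and P4ha2) all were below, beside 13.5%. In LNIO_Ipsil against Sham_Ipsil 4 of the 37 (Hk2, Hk3, Slc16a3 and P4ha1) had all libraries above sham, beside 10.1% of all genes, and 0 had all below, beside 7.86%. The calls at the LPC site depended on single libraries. Without the third LPC_Ipsil library 7 were called (Hk2, Hk3, Pfkfb3, Slc16a3, Hif1a, Egln3 and P4ha1), beside 9.62% of all genes. Without the first or the second LPC_Ipsil library or any 1 of the sham libraries 0 of the 37 were called. Over all genes, leaving out 1 library gave 0 to 1646 calls in LPC_Ipsil against Sham_Ipsil, so the 37 were not alone in moving. Without the third LNIO_Contra library Slc16a3 was not called (adjusted p = 0.0506). When only the 2 groups compared were fitted, 0 of the 37 were called in LPC_Ipsil and 3 (Hk2, Hk3 and Slc16a3) in LNIO_Ipsil. Over all genes that fit also called 0 in LPC_Ipsil. In LNIO_Ipsil it called genes where the main fit called 0% of all genes, so the whole set of genes moved with the 37. The counts over all genes are in the last section.

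Set directly against each other, the ischaemic and the demyelinated site differed in no called gene of the 37. In LNIO_Ipsil against LPC_Ipsil edgeR called 0 of the 37, beside 0% of all genes, with 3 of the 37 at an unadjusted p under 0.05, beside 8.39% of all genes, and 0 called by DESeq2. The log2 difference was -1.05 ± 0.49 for Hk2 (95% interval -2.09 to 0.00), -1.02 ± 0.51 for Hk3 (-2.11 to 0.06), -0.63 ± 0.57 for Slc16a3 (-1.86 to 0.60) and -1.01 ± 0.53 for Ndufa4l2 (-2.14 to 0.12), so the 2 sites are not shown to be alike for these genes. For Hk2 the difference was -1.51 without the third LPC_Ipsil library (adjusted p = 0.0164, where 1.41% of all genes were called) and -0.41 without the first (adjusted p = 0.999). Slc16a3 changed sign without the first, to 0.30. In Ldha the difference was -0.02 (-0.33 to 0.29), in Pdk1 -0.11 (-0.39 to 0.17) and in Bnip3 0.19 (-0.05 to 0.42). In 5 of the 37 (Pfkfb4, Slc16a1, Epas1, Egln1 and Kdm3a) all LNIO_Ipsil libraries were below all LPC_Ipsil libraries, beside 7.61% of all genes, and in 0 all were above, beside 6.07%. The median of the 37 was -0.11, beside -0.04 over all genes. The oxygen sensor had 6 of 6 values below 0, from -0.53 for Egln3 to -0.07 for Arnt, none of them called.

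**Figure D4:**
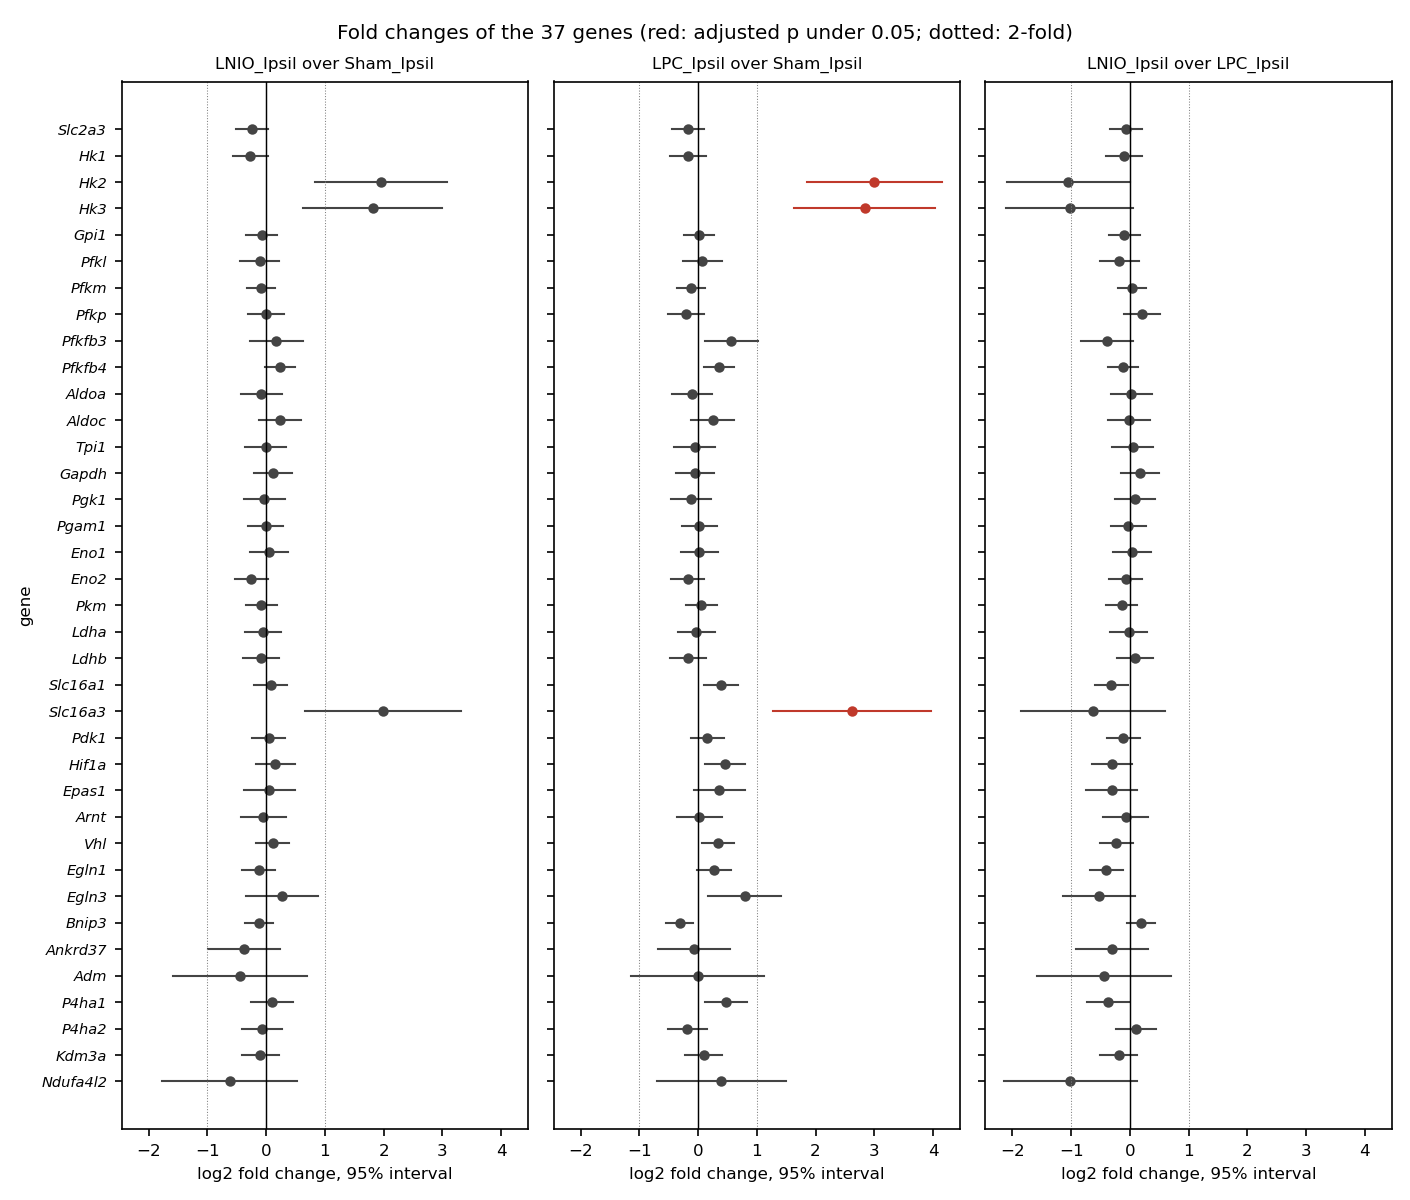
Log2 fold changes with 95% intervals for the 37 genes by role, from top to bottom, in LNIO_Ipsil against Sham_Ipsil, LPC_Ipsil against Sham_Ipsil and LNIO_Ipsil against LPC_Ipsil. Most estimates lie near the line at 0 with short intervals, Hk2, Hk3 and Slc16a3 lie to the right against sham, and Adm and Ndufa4l2 have wide intervals.

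At the L-NIO site the picture against the opposite side of the same model was close to that against sham. Between the L-NIO sides edgeR called 0 of the 37 and 0% of all genes, with 4 of the 37 at an unadjusted p under 0.05, beside 6.08% of all genes. That fit did not pair the libraries of the sides, and with a block within each model edgeR also called 0 of the 37. DESeq2 called 1 (Hk2), beside 1.14% of the genes it tested. Leaving out the third LPC_Ipsil library, edgeR called Hk2 and Hk3, beside 2.22% of all genes. The log2 difference was 2.04 ± 0.52 for Hk2, 1.78 ± 0.55 for Hk3 and 1.59 ± 0.60 for Slc16a3, with adjusted p values of 0.326, 0.378 and 0.604. All 6 genes of lower glycolysis were below 0, from -0.31 for Eno2 to -0.02 for Gapdh, none of them called. In 5 of the 37 (Hk2, Hk3, Pfkfb4, Slc16a3 and Hif1a) all LNIO_Ipsil libraries were above all LNIO_Contra libraries, beside 7.91% of all genes, and in 3 (Pfkm, Eno2 and Ndufa4l2) all were below, beside 5.24%.

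Between the LPC sides edgeR called 0 of the 37 and 0% of all genes, with 10 of the 37 at an unadjusted p under 0.05, beside 12.1% of all genes. DESeq2 called 6 of the 37 (Hk2, Hk3, Pfkfb4, Slc16a3, Pdk1 and Hif1a), beside 3.67% of the genes it tested. Leaving out the third LPC_Ipsil library, edgeR called 7, these and Egln3, beside 5.55% of all genes. The log2 difference was 2.79 ± 0.53 for Hk2, 2.57 ± 0.55 for Hk3 and 2.17 ± 0.61 for Slc16a3. It was 0.64 ± 0.16 for Hif1a, 0.53 ± 0.13 for Pdk1 and 0.47 ± 0.12 for Pfkfb4, a second enzyme of phosphofructokinase control, and the smallest adjusted p among the 37 was 0.0629. In Pdk1 the opposite side was the low one: it had 59.9, 66.7 and 48.6 CPM in LPC_Ipsil and 36.1, 42.1 and 43.2 CPM in LPC_Contra, beside 58.1, 50.6 and 48.7 CPM in Sham_Ipsil, and its log2 value in LPC_Contra against Sham_Ipsil was -0.37 ± 0.13 (adjusted p = 0.492). In 6 of the 37 (Hk2, Hk3, Pfkfb4, Slc16a1, Pdk1 and Hif1a) all LPC_Ipsil libraries were above all LPC_Contra libraries, beside 7.06% of all genes, and in 3 (Hk1, Pfkm and Eno2) all were below, beside 6.59%. Hk1 is the hexokinase most abundant in brain and Eno2 the enolase of neurons. The neuronal marker sum was 3398 to 4255 CPM in LPC_Ipsil, against 4375 to 5294 CPM in LPC_Contra. Its part in these 3 genes was not tested.

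The opposite sides held no called gene of the 37. In LNIO_Contra against Sham_Ipsil edgeR called 0 (0% of all genes), 0 of the 37 had an unadjusted p under 0.05 (2.72% of all genes) and DESeq2 called 0. In LPC_Contra against Sham_Ipsil it called 0 (0.00595% of all genes, which is 1 gene), with 6 of the 37 at an unadjusted p under 0.05 (9.67% of all genes) and 0 called by DESeq2. In LNIO_Contra against LPC_Contra it called 0 (0% of all genes), with 3 of the 37 at an unadjusted p under 0.05 (3.43% of all genes) and 0 called by DESeq2. In LNIO_Contra against Sham_Ipsil 1 of the 37 (Aldoc) had all libraries higher, beside 5.01% of all genes, and 0 had all lower, beside 5.13%. In LPC_Contra against Sham_Ipsil 3 (Pfkfb3, Aldoc and P4ha1) had all higher, beside 7.06%, and 2 (Pdk1 and Bnip3) had all lower, beside 8.07%. Between the opposite sides 2 (Pfkfb4 and Bnip3) had all LNIO_Contra libraries higher, beside 3.88%, and 2 (Egln1 and P4ha1) had all lower, beside 4.67%. The largest estimate in LNIO_Contra was 0.40 for Slc16a3. In LPC_Contra it was 0.53 for Ndufa4l2, and Epas1, the alpha subunit of endothelium, stood at 0.49, with a spread of 97.0 to 187 CPM in LPC_Contra against 87.6 to 117 CPM in Sham_Ipsil. The sum of the 7 endothelial markers was 204, 180 and 288 CPM in LPC_Contra, against 155 to 170 CPM in Sham_Ipsil, and the third LPC_Contra library had both the most Epas1 and the highest sum of all 15. The median log2 value of the 7 markers was 0.66, with 5 at an unadjusted p under 0.05 and 0 called. Their part in the Epas1 level was not tested. The interaction of model and side, which asks whether the 2 injuries differ from their own opposite sides by unlike amounts, was called in 0 of the 37 (0% of all genes), with 0 at an unadjusted p under 0.05 (1.02% of all genes) and 0 by DESeq2.

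In the main fit, further genes of the same pathways, which are not among the 37, were not called at the L-NIO site either. In that comparison with Sham_Ipsil edgeR called 0% of all genes. Of 26 other glycolytic and pyruvate genes 23 were tested, and 0 were called in any comparison by edgeR. In LNIO_Ipsil against Sham_Ipsil 0 of the 23 had an unadjusted p under 0.05, beside 8.87% of all genes, and the median log2 fold change was -0.06. Of 32 other oxygen-sensing and hypoxia target genes 30 were tested, and 0 were called in LNIO_Ipsil against Sham_Ipsil. An unadjusted p under 0.05 was found in 4 of the 30, beside 8.87% of all genes, and the median was 0.02. In LPC_Ipsil against Sham_Ipsil 3 of the 30 were called higher, beside 4.19% of all genes, and 0 lower, beside 0.994%. The 3 were Slc2a1, the glucose transporter of brain endothelium, Plod1, a collagen lysyl hydroxylase, and Lox, which cross-links collagen.

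Plod1 had 34.4, 56.7 and 39.4 CPM in LNIO_Ipsil, 83.3, 63.3 and 54.5 CPM in LPC_Ipsil and 43.4, 34.8 and 34.2 CPM in Sham_Ipsil, and its log2 fold change was 0.22 ± 0.19 in LNIO_Ipsil (adjusted p = 0.814) and 0.84 ± 0.19 in LPC_Ipsil (adjusted p = 0.0247). All 3 LPC_Ipsil libraries were above sham, the third included. Lox had 4.57, 1.78 and 2.38 CPM in LNIO_Ipsil, 9.30, 6.57 and 1.57 CPM in LPC_Ipsil and 0.418, 0.811 and 1.16 CPM in Sham_Ipsil, with log2 fold changes of 1.85 ± 0.60 and 2.85 ± 0.60. Slc2a1 had 56.2, 69.7 and 51.9 CPM in LNIO_Ipsil, 74.7, 73.7 and 68.1 CPM in LPC_Ipsil, 63.5, 70.4 and 96.1 CPM in LPC_Contra and 46.5, 46.9 and 46.4 CPM in Sham_Ipsil. It was therefore as high on the side opposite to LPC as at the LPC site, and its log2 value between the LPC sides was -0.09 ± 0.14. The endothelial sums of 190 to 246 CPM in LPC_Ipsil and 180 to 288 CPM in LPC_Contra were likewise above the 155 to 170 CPM of Sham_Ipsil, and the third LPC_Contra library was highest in both. Their part in the Slc2a1 level was not tested. Without the third LPC_Ipsil library the log2 fold changes in LPC_Ipsil against Sham_Ipsil were 0.97 for Plod1, 3.29 for Lox and 0.67 for Slc2a1, with adjusted p values of 0.00375, 0.000353 and 0.0162. Without the first or the second LPC_Ipsil library or any 1 sham library, none of these 3 calls was kept. Over all genes, leaving out 1 library gave 0 to 1646 calls in LPC_Ipsil against Sham_Ipsil. In LNIO_Ipsil against Sham_Ipsil edgeR called Lox in 1 of the 15 fits that left out 1 library (adjusted p = 0.0471). Over all genes those fits gave 0 to 398 calls in that comparison.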

How the data were processed

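Bulk RNA of mouse corpus callosum was measured in 15 libraries, 3 in each of 5 groups. The deposited count table gives whole-number read counts per gene symbol. The deposited FPKM table gives the authors' length-scaled fragment values for these libraries, and it was used only to order genes by level within sham tissue. Per the submitters' processing notes the tools include HISAT2 2.2.1 and R 4.4.2, with GRCm39 as build. How reads were counted, with which strand setting and annotation, is not given in the sources used here. Overlapping genes and near-identical copies are uncertain. All columns were matched to libraries by model, side and number, and 74 entries repeat a symbol.

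Tests on the counts used edgeR 4.0.16 under R 4.3.3 (quasi-likelihood test, robust, TMM scaling, filterByExpr with a minimum count of 10 and a minimum total of 15), with 1 mean per group over all 15 libraries and no block. P-values were adjusted by Benjamini and Hochberg over all 16795 tested genes, and a gene was called at an adjusted p under 0.05. SE is the size of the log2 fold change over the square root of F. The 9 comparisons were the 3 among LNIO_Ipsil, LPC_Ipsil and Sham_Ipsil, the sides of each model, the opposite sides with sham and with each other, and the interaction. The scripts were tested on simulated counts. Replicate pairs differed by a chi-square per degree of freedom of 10.1 to 63.7, so none looked like 1 library deposited again.

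The members, the lists and the rules were chosen with earlier results of these data known. Values and tests were given for members called at the injured sides and for Hk2, Pfkfb3, Slc2a3, Ldha, Slc16a3, Pdk1, Hif1a, Egln3, Bnip3, Ankrd37, Adm and Ndufa4l2, with the largest and smallest fold change of each role; other genes named were chosen after their values were seen. Cell type markers were read as summed CPM.

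Same-numbered libraries of the L-NIO sides deviated together over genes (r = 0.633, 0.387 and 0.237). Between the LPC sides r was -0.0709, 0.158 and 0.335. The main fit did not pair libraries in any comparison. The replicate block joined equal numbers of all groups, and the block within each model joined equal numbers of its sides. Other settings were DESeq2 1.42.0 size factors, the DESeq2 Wald test, no filter, only the groups compared, a replicate block and leaving out each library. Promoter windows are RefSeq's on GRCm38.p6.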

Additional observations from a re-analysis of the deposited data

How the results depend on the processing

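With DESeq2 size factors in edgeR, the members called were as in the report in all 9 comparisons. The DESeq2 Wald test called 2 members in LNIO_Ipsil against Sham_Ipsil, 1 between the L-NIO sides and 6 between the LPC sides. Fitting only the groups compared called 3 in LNIO_Ipsil against Sham_Ipsil, 0 in LPC_Ipsil against Sham_Ipsil and 3 between the L-NIO sides. No filter on low counts, and likewise the replicate block, left 2 (Hk2 and Hk3) in LPC_Ipsil against Sham_Ipsil, and Slc16a3 had an adjusted p of 0.0700 and 0.0549. The replicate block changed no other count of members. A block within each model, chosen after seeing the data, called 0 members between the L-NIO sides, where same-numbered libraries deviated together, and 0 between the LPC sides. Leaving out 1 library gave 0 to 3 members in LNIO_Ipsil against Sham_Ipsil, 0 to 7 in LPC_Ipsil against Sham_Ipsil, 0 to 1 in LNIO_Ipsil against LPC_Ipsil, 0 to 2 between the L-NIO sides and 0 to 7 between the LPC sides; every highest count came without the third LPC_Ipsil library. The cause was not tested.

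Over all genes, LPC_Ipsil against Sham_Ipsil gave 871 calls, 524 without a filter, 1471 with DESeq2, 652 with the replicate block, 0 with only the groups compared and 0 to 1646 leaving out 1 library. LNIO_Ipsil against Sham_Ipsil gave 0 calls, 1 without a filter or with the block, 230 with DESeq2, 378 with only the groups compared and 0 to 398 leaving out 1 library. The L-NIO sides gave 0, then 186 with DESeq2, 359 with only the groups compared, 6 with the block within each model and 0 to 380 leaving out 1 library. The LPC sides gave 0, then 669 with DESeq2, 24 with the block within each model and 0 to 950 leaving out 1 library. LNIO_Ipsil against LPC_Ipsil gave 0, then 16 with DESeq2, 1 without a filter and 0 to 241 leaving out 1 library. Calls between opposite sides and sham stayed between 0 and 28.

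Some log2 values changed sign, many of them close to 0. Slc16a3 in LNIO_Ipsil against LPC_Ipsil, at -0.63 in the main fit, and Plod1 in LNIO_Ipsil against Sham_Ipsil were further from 0. Adm in LPC_Ipsil against Sham_Ipsil was 0.034 with the replicate block, Arnt was -0.0082 without a filter and -0.0073 with only the groups compared, and Ldha in LNIO_Ipsil against LPC_Ipsil was 0.0011 without a filter. Leaving out 1 library, LNIO_Ipsil against Sham_Ipsil ran from -0.12 to 0.015 for Ldha, -0.034 to 0.14 for Pdk1, -0.0081 to 0.13 for Slc16a1 and -0.0021 to 0.36 for Plod1. LPC_Ipsil against Sham_Ipsil ran from -0.12 to 0.072 for Ldha, -0.24 to 0.36 for Adm, -0.10 to 0.16 for Arnt and -0.016 to 0.13 for Pkm. LNIO_Ipsil against LPC_Ipsil ran from -1.09 to 0.30 for Slc16a3, -0.11 to 0.071 for Ldha and -0.24 to 0.054 for Arnt. P4ha1 ran from -0.021 to 0.086 between the L-NIO sides and from -0.14 to 0.31 between the LPC sides. Depth limits Adm and Ndufa4l2, at about 1 CPM.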
